A study of Mus musculus with 24 samples.

Results

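The lung response to the carcinogen urethane was described in AIRmax mice, a line bred for a strong acute inflammatory reaction. The comparison took 12 of the 24 arrays of the series, chosen by title: 6 AIRmax mice given urethane and 6 AIRmax mice given saline, with 3 males and 3 females in each group. Each animal had received 2 intraperitoneal injections 48 h apart, either of urethane at 1 mg per g of body weight or of saline, and normal lung parenchyma was taken 21 days later. The other 12 arrays came from AIRmin mice, bred for a weak inflammatory reaction and treated in the same way, with 3 animals of each sex in each treatment group. They share no animals with the AIRmax groups, and their values are given only where the lines are set side by side. All 24 arrays entered the main fit, however, so the AIRmin arrays also shaped the standard errors and p-values of the AIRmax comparison. Ages are not given in the sources used here. Both lines are selected stocks, so the animals of a group need not be genetically identical.

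Urethane (ethyl carbamate) is converted in liver and lung to a reactive epoxide that forms adducts on DNA, and it induces lung adenomas in susceptible mice. Damaged DNA stabilises the tumour suppressor p53, a transcription factor that switches on genes for cell cycle arrest, apoptosis, metabolic adjustment and its own degradation. A transcript level in whole lung reflects both the number of cells of each type and the RNA made per cell, and in these bulk samples fewer cells of a type and less RNA per cell cannot be told apart.

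Cdkn1a and Ccng1, both textbook p53 targets, were among the 22 genes that were higher after urethane, and promoter sequence was examined for these genes because p53 binds DNA directly. The p53 response element consists of 2 half-sites of 10 bases, each made of 3 purines, a C, 2 bases that are A or T, a G and 3 pyrimidines, separated by a spacer of up to 13 bases. The pattern reads the same on both strands. RefSeq promoter windows (assembly GRCm38.p6, 250 bases before to 50 after an annotated start) were matched by symbol for 17 of the 22 higher genes and 6 of the 10 lower genes. A window with at most 1 mismatch, and with the C and G of both half-sites kept, was found for 4 of the 17 higher genes and 0 of the 6 lower genes. Over all 32851 windows 0.627% held such a match, and over 27025 genes 0.718% held one in any window. With 2 mismatches allowed the counts were 5 of 17 and 1 of 6 (the added genes were Bax and Kif26b), and 4.09% of all windows and 4.71% of all genes matched. Both limits were chosen with the results known. The windows of Gdf15, Phlda3, Mdm2 and Sesn2, which were also higher after urethane, held no match at either limit. Whether a match has a part in the response was not tested. The 4 windows are shown with the half-sites in capitals, 5′ to 3′ on the strand of the gene.
Cdkn1a, chr17:29090729-29091028, plus strand: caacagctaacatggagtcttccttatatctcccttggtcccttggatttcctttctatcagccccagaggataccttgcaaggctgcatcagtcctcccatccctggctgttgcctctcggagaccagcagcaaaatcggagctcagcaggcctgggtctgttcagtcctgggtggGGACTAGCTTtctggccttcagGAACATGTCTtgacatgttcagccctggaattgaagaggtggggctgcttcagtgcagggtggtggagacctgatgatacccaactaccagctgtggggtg
Ccng1, chr11:40755237-40755536, minus strand: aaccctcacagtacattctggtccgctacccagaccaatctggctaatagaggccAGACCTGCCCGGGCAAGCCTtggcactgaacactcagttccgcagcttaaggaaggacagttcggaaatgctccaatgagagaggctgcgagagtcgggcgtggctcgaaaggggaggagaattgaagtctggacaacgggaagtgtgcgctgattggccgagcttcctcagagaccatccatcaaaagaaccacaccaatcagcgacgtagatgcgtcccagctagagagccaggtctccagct
Gtse1, chr15:85859696-85859995, plus strand: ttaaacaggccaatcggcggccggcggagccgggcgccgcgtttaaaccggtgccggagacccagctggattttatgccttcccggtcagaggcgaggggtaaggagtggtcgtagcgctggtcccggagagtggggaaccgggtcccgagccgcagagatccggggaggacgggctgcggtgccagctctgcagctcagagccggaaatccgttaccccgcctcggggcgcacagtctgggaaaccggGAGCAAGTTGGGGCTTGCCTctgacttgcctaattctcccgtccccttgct
Inka2, chr3:105705208-105705507, plus strand: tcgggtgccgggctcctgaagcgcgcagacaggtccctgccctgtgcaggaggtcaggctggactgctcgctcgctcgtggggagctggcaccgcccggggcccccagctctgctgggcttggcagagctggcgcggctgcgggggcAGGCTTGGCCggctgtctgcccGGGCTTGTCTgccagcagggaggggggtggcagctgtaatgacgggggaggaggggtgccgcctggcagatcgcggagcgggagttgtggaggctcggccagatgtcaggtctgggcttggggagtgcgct
The Cdkn1a match had 0 mismatches and a spacer of 12 bases, and the other 3 matches had 1 mismatch each. Capitals mark only the pair with the fewest mismatches in a window. In the Cdkn1a window the second marked half-site is followed directly by the bases tgacatgttc. These 2 adjoining stretches also form a match, with 1 mismatch, and which pair p53 would use was not tested. The Ccng1 and Gtse1 half-sites adjoined directly. A second window of Cdkn1a, of Gtse1 and of Inka2, at another annotated start, held no match at either limit. A match describes the letters of a window and does not show that p53 was bound there.

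Levels are log2 intensities of Illumina bead array probes. The 12 AIRmax arrays correlated with each other at 0.936 to 0.993 (Pearson, across probes). The lung markers Sftpc, surfactant protein C of alveolar type 2 cells, and Scgb1a1, the secretoglobin of club cells, lay at 15.97 to 16.08 and 16.04 to 16.08 in all 12 mice, near the top of the scale. All 6 females had more Xist, the RNA of X inactivation, than any of the 6 males. One array stood apart, that of urethane female mouse 4. In it 262 probes were over 4-fold brighter than in every other AIRmax mouse, against at most 4 such probes in any other mouse. Apoa2, an apolipoprotein of hepatocytes, was at 16.10 in mouse 4 and at 7.43 to 8.73 in the other 11 mice, and 24 of 29 hepatocyte genes were above the background limit in mouse 4 against 8 to 15 in the others. Its hepatocyte score, the mean over the tested hepatocyte genes of the log2 distance from the median of all mice, was 6.13, and the other 5 urethane mice lay between 0.06 and 0.76. Albumin itself, Alb, was not above the limit on 3 arrays and was not tested. Its probe was not raised in mouse 4, at 7.39 there and at 6.93 to 7.39 in the other 11 mice. The squamous epithelium score was 3.31 in mouse 4, 2.08 in urethane male mouse 2 and 0.79 in saline male mouse 9. The main results are therefore given with and without mouse 4.

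With all 12 mice, 38 of 18224 tested probes differed between urethane and saline (limma, adjusted p under 0.05, 0.209% of probes), 28 higher (0.154%) and 10 lower (0.0549%). They stood for 32 genes, 22 higher and 10 lower. The higher genes were headed by Gdf15, Cdkn1a, Ddit4l, Gtse1, Phlda3 and Ccng1, and the lower genes by Dusp26, Tnn, Kif26b and Dpysl5. At an unadjusted p under 0.05 there were 1588 probes. Of the 38 called probes 30 had groups that did not overlap, 21 of them higher and 9 lower, where 101 of all tested probes (0.554%) had groups that did not overlap.

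Without mouse 4 the count was 45 probes (0.247%), 38 higher (0.209%) and 7 lower (0.0384%), for 31 higher and 7 lower genes. The 2 fits shared 26 genes. Of the 22 higher genes 21 were also called without mouse 4, the exception being Ddit4l, and of the 10 lower genes 5 were. The lower genes that lost the call were Tcim, Acta2, Sox17, Ddx5 and Nbl1. Mouse 4 was the lowest mouse for all 10 lower genes, including the 5 that kept the call (Dusp26, Tnn, Kif26b, Dpysl5 and Colq). The differences of Tcim, Acta2, Sox17, Ddx5 and Nbl1 kept their sign without mouse 4, at -0.55, -0.52, -0.49, -0.39 and -0.25 (log2).

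**Figure D1:**
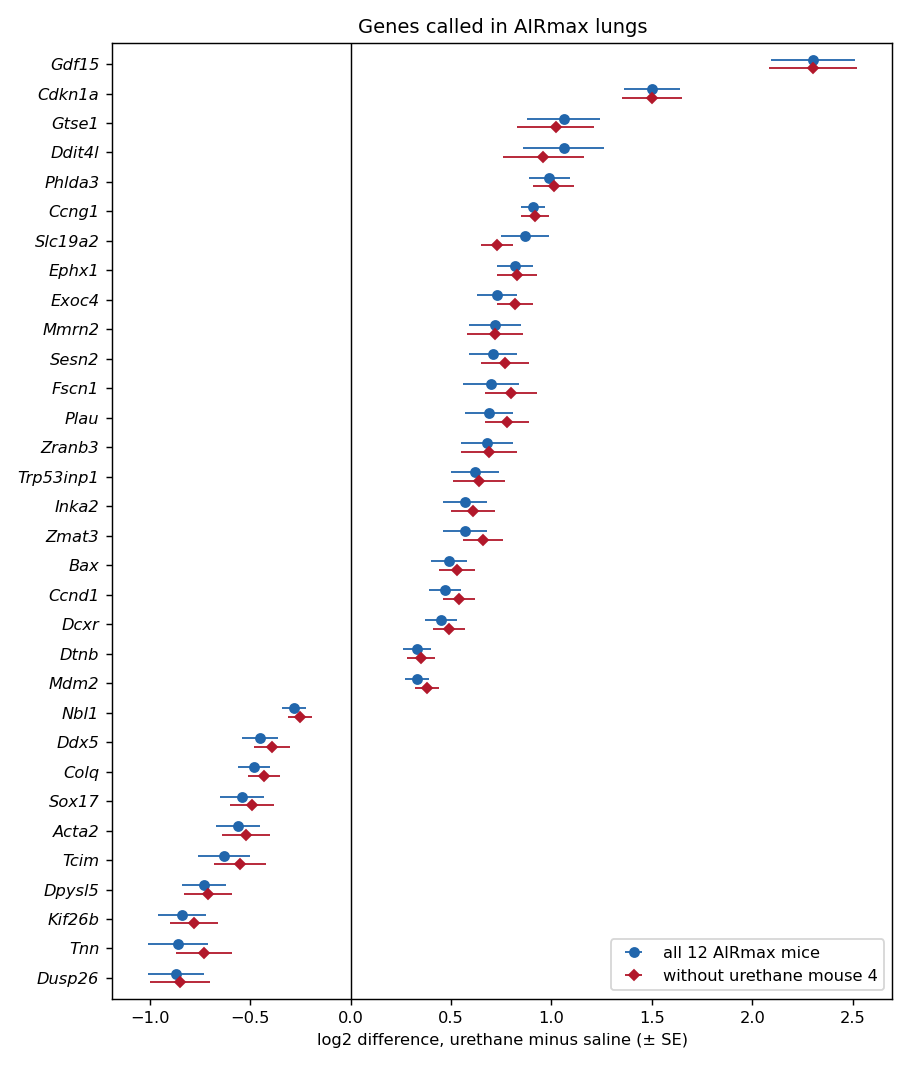
Log2 difference between urethane and saline AIRmax mice (x axis, ± SE of the limma fit) for the 32 called genes, with all 12 mice (blue circles) and without urethane mouse 4 (red diamonds). Every pair lies on the same side of 0, from 2.30 for Gdf15 to -0.87 for Dusp26, and Slc19a2 moves from 0.87 to 0.73.

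Among p53 targets that halt the cell cycle, Cdkn1a, which encodes the cyclin-dependent kinase inhibitor p21, had the largest change. It lay at 12.26 to 13.13 (median 12.95) in saline mice and at 14.18 to 14.49 (median 14.41) in urethane mice. The groups were far apart, and the lowest saline value was that of female mouse 12. The difference was 1.5 ± 0.14 (log2, SE, 2.82-fold, adjusted p = 3.11e-06 in limma) and 1.5 ± 0.15 without mouse 4. The 2 other Cdkn1a probes rose by 1.38 ± 0.13 and 1.56 ± 0.12.

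Ccng1, cyclin G1, which brings a phosphatase to Mdm2, had the smallest adjusted p. Saline mice lay at 12.92 to 13.31 (median 13.05) and urethane mice at 13.91 to 14.12 (median 13.99). All urethane mice were well above all saline mice. The difference was 0.91 ± 0.06 (adjusted p = 1.22e-07) and 0.92 ± 0.07 without mouse 4, and its 2 other probes rose by 0.97 ± 0.10 and 1.04 ± 0.09.

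Gtse1, a microtubule-associated protein of the G2 and S phases that restrains p53, rose from 8.26 to 9.03 (median 8.72) in saline mice to 9.20 to 9.97 (median 9.87) in urethane mice. The groups did not overlap. The difference was 1.06 ± 0.18 (adjusted p = 0.0136), and a second, dimmer probe rose by 0.60 ± 0.08 (adjusted p = 0.00126). Trp53inp1, a p53-induced nuclear protein, rose by 0.62 ± 0.12 (adjusted p = 0.0324). Its urethane range of 12.45 to 13.32 overlapped the saline range of 12.06 to 12.66 through male mouse 16. A second Trp53inp1 probe differed by 0.54 ± 0.15 and was not called (adjusted p = 0.219). Zmat3, an RNA-binding zinc finger protein, rose by 0.57 ± 0.11 (adjusted p = 0.0285). Its groups met only through mouse 4, at 11.54 against saline values up to 11.58, and without that mouse the difference was 0.66 ± 0.10.

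Of the 11 tested arrest genes these 5 were called higher and 0 lower, with a median difference of 0.26 beside -0.01 over all 13135 tested genes. Among all genes at their brightest probe 0.16% were called higher and 0.0685% lower, and without mouse 4 0.213% and 0.0533%. Not called were Gadd45a (0.09), Sfn, the 14-3-3 sigma protein (0.26), Plk2 (-0.03), Plk3 (-0.05), Rprm (0.02) and Ptprv (0.01). The list median was 0.11 without mouse 4, with the same number of calls.

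**Figure D2:**
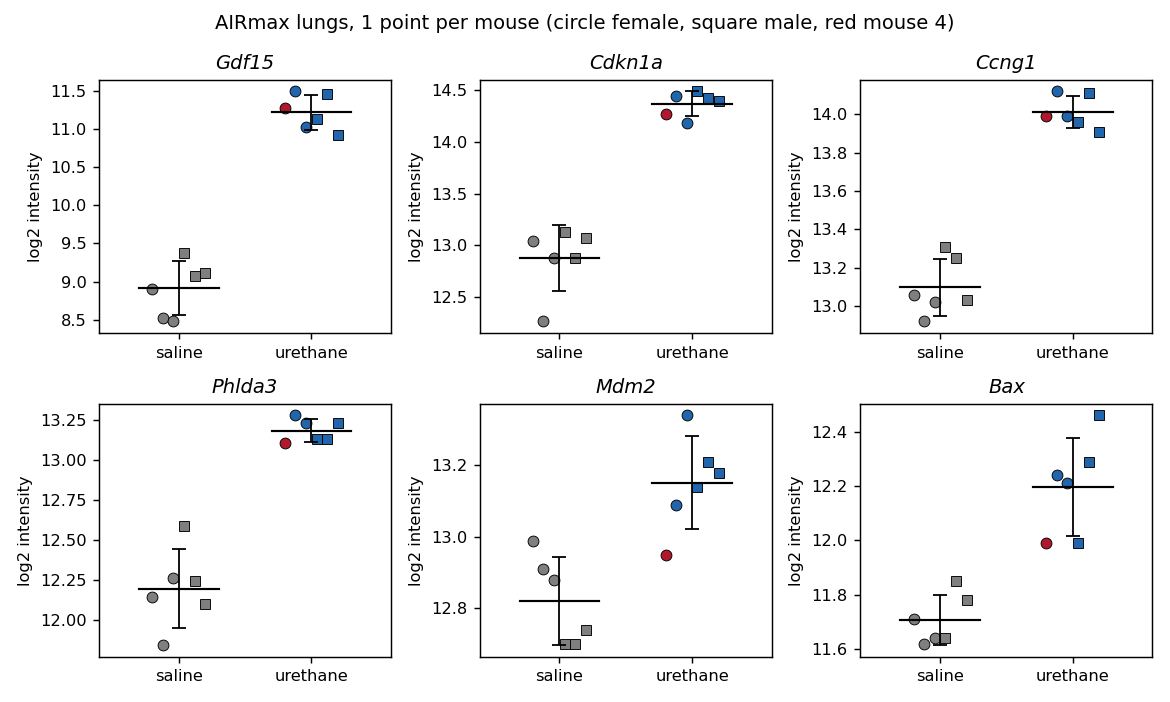
Log2 intensity (y axis) of 6 p53-related genes in each of the 12 AIRmax mice by treatment (circles female, squares male, mouse 4 in red), with the mean and SD of each group. Urethane mice lie above all saline mice for Gdf15, Cdkn1a, Ccng1, Phlda3 and Bax, while for Mdm2 mouse 4, at 12.95, falls below the highest saline value of 12.99.

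Phlda3, a membrane-bound inhibitor of the kinase Akt, led the p53 targets of apoptosis. It lay at 11.84 to 12.59 (median 12.19) in saline mice and at 13.11 to 13.28 (median 13.18) in urethane mice. The urethane values were tightly grouped and all above the saline values. The difference was 0.99 ± 0.10 (adjusted p = 7.22e-06), and a second probe differed by 1.09 ± 0.30 without a call (adjusted p = 0.21). Bax, which permeabilises the mitochondrial membrane in apoptosis, lay at 11.62 to 11.85 (median 11.67) in saline mice and at 11.99 to 12.46 (median 12.22) in urethane mice. The groups were apart, with mouse 4 at the lower edge of the urethane values. Bax rose by 0.49 ± 0.09 (adjusted p = 0.0186) and by 0.53 ± 0.09 without mouse 4.

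The other 14 of the 16 tested apoptosis genes were not called. Bbc3, the BH3-only protein Puma, differed by 0.34 (adjusted p = 0.465), and Pmaip1, the BH3-only protein Noxa, by -0.18 (adjusted p = 0.795). The death receptor gene Fas differed by -0.15 (adjusted p = 0.726) and the nuclease gene Aen by 0.28 (adjusted p = 0.168). The list median was 0.17, and 0.16 without mouse 4.

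The gene for p53 itself showed no call. Trp53 lay at 11.33 to 11.54 in saline and at 11.31 to 11.53 in urethane mice, fully overlapping, with a difference of 0.03 ± 0.06 (adjusted p = 0.931). Mdm2, the ubiquitin ligase that degrades p53 and is itself a p53 target, rose by 0.33 ± 0.06 at its brightest probe (adjusted p = 0.023), from a median of 12.81 to one of 13.16. Only mouse 4, at 12.95, lay within the saline range of 12.70 to 12.99. A second Mdm2 probe rose by 0.39 ± 0.08 (adjusted p = 0.0399), while the dimmest, close to background at 8.01 to 8.46, differed by -0.02 ± 0.10. Mdm2 was the 1 called gene of the 15 tested genes for p53 and its regulators. The related Mdm4 differed by -0.13, the phosphatase Ppm1d by 0.08, and the damage-sensing kinases Atm and Chek2 by 0.20 and -0.16, none of them called.

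Gdf15, a secreted stress cytokine of the TGF-beta family, showed the largest difference of any called gene. Saline mice lay at 8.48 to 9.38 (median 9.0) and urethane mice at 10.92 to 11.49 (median 11.20). The gap between the groups was wider than either group's range. The difference was 2.30 ± 0.21 (4.92-fold, adjusted p = 3.11e-06) and 2.30 ± 0.22 without mouse 4. It was present in both sexes, at 1.98 ± 0.29 in males and 2.62 ± 0.29 in females.

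Slc19a2, a thiamine transporter, lay at 9.81 to 10.15 (median 10.06) in saline mice and at 10.65 to 11.62 (median 10.82) in urethane mice. The groups did not overlap, and mouse 4 was the highest. The difference of 0.87 ± 0.12 (adjusted p = 0.000809) became 0.73 ± 0.08 without it (adjusted p = 2.7e-05). Sesn2, a sestrin that restrains mTORC1 under stress, rose by 0.71 ± 0.12 (adjusted p = 0.0152), and its dimmer probe differed by 0.33 ± 0.07 without a call (adjusted p = 0.107). Sesn2 urethane values of 9.49 to 10.07 overlapped saline values of 8.69 to 9.54 through the single saline male 24.

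Plau, the urokinase plasminogen activator, was called at 0.69 ± 0.12 (adjusted p = 0.0152). Its saline mice lay at 9.99 to 10.47 and its urethane mice at 10.34 to 11.37. Mouse 4 was the lowest urethane mouse and the only one within the saline range. Without it the groups did not overlap and the difference was 0.78 ± 0.11. These 4 genes were the called members of the 15 tested p53 targets of metabolism, stress signalling and secretion, where 0 were lower and the median was 0.24. Sesn1, the paralogue of Sesn2, differed by -0.09 and the mitochondrial reductase gene Fdxr by 0.03. Gls2, a glutaminase that hepatocytes also make, differed by 0.65 without a call (adjusted p = 0.67). It was at 11.99 in mouse 4 and at most 8.69 in saline mice. Without mouse 4 the Gls2 difference was 0.06 ± 0.11 (adjusted p = 0.92).

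Over the 4 p53 lists together 12 of 57 tested genes were called higher and 0 lower, with and without mouse 4. The median difference was 0.14 (0.12 without mouse 4), and 47 of the 57 were positive, beside 5814 of all 13135 genes. In 8 of the 57 the lowest urethane mouse lay above the highest saline mouse, beside 31 of all genes at their brightest probe (46 of all probes, 0.252%). The lists were written with earlier results of these arrays known, so their counts describe the response and give no independent support for its direction.

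Ddit4l, an inhibitor of mTOR signalling, led the 10 called higher genes outside those lists. It lay at 9.37 to 9.97 (median 9.83) in saline mice and at 10.43 to 11.23 (median 10.69) in urethane mice. The groups did not overlap, and mouse 4 was the highest mouse. The difference was 1.06 ± 0.20 (adjusted p = 0.023) and 0.96 ± 0.20 without mouse 4, just outside the threshold at an adjusted p of 0.0545. Ephx1, the microsomal epoxide hydrolase that opens reactive epoxides, lay at 13.86 to 14.35 (median 14.09) in saline mice and at 14.72 to 15.11 (median 14.94) in urethane mice. The groups were clearly apart, with a difference of 0.82 ± 0.09 (adjusted p = 4.57e-05). Ephx1 was the 1 called gene of 23 tested genes of xenobiotic metabolism. Cyp2e1, the cytochrome P450 that oxidises urethane, was at 15.91 in mouse 4 and at 11.15 to 12.78 in the other mice. It differed by 0.60 ± 0.56 with and by -0.11 ± 0.34 without mouse 4, neither called.

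Exoc4, a subunit of the exocyst that tethers secretory vesicles, lay at 11.01 to 11.39 (median 11.24) in saline mice and at 11.56 to 12.15 (median 12.02) in urethane mice. The groups did not overlap, and mouse 4 was lowest of the urethane mice. The difference was 0.73 ± 0.10 (adjusted p = 0.000868) and 0.82 ± 0.09 without mouse 4. Zranb3, a DNA translocase that acts at stalled replication forks, rose by 0.68 ± 0.13 (adjusted p = 0.0324), with urethane mice from 10.12 to 10.64 just above saline mice from 9.36 to 10.12. Mmrn2, an extracellular matrix glycoprotein of blood vessels, rose by 0.72 ± 0.13 (adjusted p = 0.0224). Its ranges of 12.57 to 13.48 and 13.41 to 13.74 met through saline female 12, whose value of 13.48 was far above the other saline mice.

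Fscn1, the actin-bundling protein fascin found in mature dendritic cells, was called at 0.70 ± 0.14 (adjusted p = 0.0399). It differed by 1.08 ± 0.20 in females and 0.32 ± 0.20 in males, and the sexes did not differ after adjustment (adjusted p = 0.303). Of 12 dendritic cell genes Fscn1 alone was called. The chemokine gene Ccl17 differed by 0.76 (adjusted p = 0.433) and the chemokine receptor gene Ccr7 by -0.27 (adjusted p = 0.403).

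Ccnd1, cyclin D1 of the G1 phase, was called at 0.47 ± 0.08 (adjusted p = 0.0186). Its urethane mice, at 14.81 to 15.26, lay just above the saline mice, at 14.52 to 14.80. Its 2 dimmer probes differed by 0.33 ± 0.09 and 0.55 ± 0.15 and were not called. Dcxr, a reductase of dicarbonyls and L-xylulose, rose by 0.45 ± 0.08 (adjusted p = 0.016), with every urethane mouse above the saline range of 12.70 to 12.81 and the highest at 13.38, and its second probe differed by 0.36 ± 0.09 without a call. Dtnb, a dystrobrevin, rose by 0.33 ± 0.07 (adjusted p = 0.0399). Inka2, an inhibitor of the kinase PAK4, was called at a dim probe (0.57 ± 0.11, adjusted p = 0.0285) that exceeded background in 3 of 6 saline and 6 of 6 urethane mice. The brightest Inka2 probe differed by 0.27 ± 0.11 and was not called (adjusted p = 0.463), and the remaining one by -0.11 ± 0.10.

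Among the 10 lower genes, Dusp26, a dual-specificity phosphatase, lay at 9.63 to 10.23 (median 9.79) in saline mice and at 8.88 to 9.04 (median 8.98) in urethane mice. The urethane values were close together and all below the saline values. Dusp26 fell by 0.87 on the log2 scale (SE 0.14, adjusted p = 0.00862), and the difference was -0.85 ± 0.15 without mouse 4. Kif26b, a kinesin family member of developing tissues, lay at 9.05 to 9.45 (median 9.26) in saline mice and at 8.08 to 8.76 (median 8.41) in urethane mice. The groups did not overlap, and mouse 4 was the lowest. The difference was -0.84 ± 0.12 (adjusted p = 0.00105) and -0.78 ± 0.12 without it.

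Tnn, tenascin N, an extracellular matrix glycoprotein, lay at 11.46 to 11.73 (median 11.69) in saline mice and at 10.04 to 11.12 (median 10.90) in urethane mice. All urethane mice were lower, and mouse 4 was well below the other 5, which lay at 10.76 to 11.12. The difference was -0.86 ± 0.15 (adjusted p = 0.016) with mouse 4 and -0.73 ± 0.14 (adjusted p = 0.0243) without it. Tnn was the 1 called gene among 36 tested fibroblast and matrix genes. Col1a1 and Col3a1, fibrillar collagens, differed by 0.09 and 0.02, and Igfbp6 by -0.74, none of them called.

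Dpysl5, a collapsin response mediator known from neurons, lay at 8.65 to 9.25 (median 8.89) in saline mice and at 8.03 to 8.44 (median 8.16) in urethane mice. The groups did not overlap. The difference was -0.73 ± 0.11 (adjusted p = 0.00485) and -0.71 ± 0.12 without mouse 4. Colq, the collagen-like tail of acetylcholinesterase, fell by 0.48 (SE 0.08, adjusted p = 0.0154), with its urethane values of 7.92 to 8.32 close to background.

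Sox17, a transcription factor of arterial endothelium, lay at 11.71 to 11.91 (median 11.84) in saline mice and at 10.93 to 11.73 (median 11.24) in urethane mice. The groups overlapped through a single urethane male, and mouse 4 was the lowest. The difference of -0.54 ± 0.11 (adjusted p = 0.0446) was -0.49 ± 0.11 without mouse 4 and no longer called (adjusted p = 0.1). A second Sox17 probe differed by -0.33 ± 0.09 without a call. Of 33 tested endothelial genes Mmrn2 was called higher and Sox17 lower. The median over the list was -0.07, and Pecam1 and Cdh5, junction proteins of all endothelium, differed by -0.07 each.

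Acta2, smooth muscle actin, depended on the probe. Its called probe lay at 12.66 to 13.14 in saline and 12.13 to 12.56 in urethane mice, without overlap (-0.56 ± 0.11, adjusted p = 0.0399). The brightest probe, at 15.51 to 15.85 near the top of the scale, differed by -0.16 ± 0.07, and the other 2 by -0.52 ± 0.13 and -0.26 ± 0.12, none of them called. Of 18 smooth muscle genes at their brightest probe 0 were called in either direction in limma, and Tagln, the smooth muscle protein transgelin, differed by -0.33 ± 0.10 (adjusted p = 0.253). Tcim, a regulator of transcription, fell by 0.63 (SE 0.13, adjusted p = 0.0476). Ddx5, an RNA helicase, and Nbl1, a secreted antagonist of bone morphogenetic proteins, fell by 0.45 and 0.28 (adjusted p = 0.0476 and 0.0439).

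**Figure D3:**
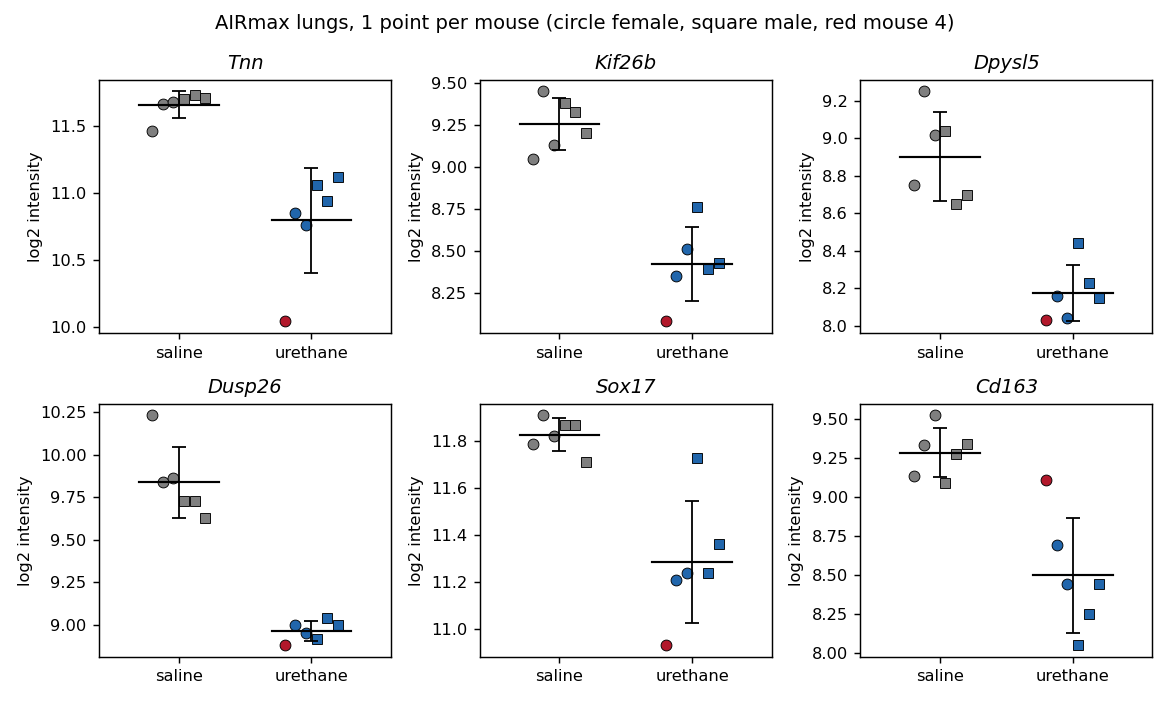
Log2 intensity (y axis) of 6 genes with lower values after urethane in each of the 12 AIRmax mice (circles female, squares male, mouse 4 in red), with the mean and SD of each group. Mouse 4 is lowest for Tnn (10.04), Kif26b (8.08), Dpysl5 (8.03), Dusp26 (8.88) and Sox17 (10.93), and for Cd163, at 9.11, it lies with the saline mice.

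Leaving out mouse 4 brought in 12 further genes. Cd163, a haemoglobin scavenger receptor of macrophages, was at 9.11 in mouse 4, within the saline range of 9.09 to 9.52, and at 8.05 to 8.69 in the other 5 urethane mice. Those 5 lay below every saline mouse. The difference was -0.78 ± 0.17 with mouse 4 (adjusted p = 0.0653) and -0.87 ± 0.17 without it (adjusted p = 0.0271). Cd163 is also made by macrophages of the liver, and Clec4f, a lectin of Kupffer cells, was at 9.70 in mouse 4 and at most 7.64 elsewhere. The part of such transcripts in the Cd163 value of mouse 4 was not tested. Marco, a scavenger receptor of alveolar macrophages, was at 9.03 in mouse 4 and at 8.48 to 9.27 in the others, and of 21 macrophage genes Cd163 alone was called without mouse 4.

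Of the genes higher only without mouse 4, Serpine2, an inhibitor of serine proteases including urokinase, differed by 0.74 ± 0.13 (adjusted p = 0.0108) against 0.58 ± 0.15 with it. Nnat, the small membrane proteolipid neuronatin, differed by 0.72 ± 0.12 (adjusted p = 0.00612), and its 5 urethane mice at 9.23 to 9.76 lay above the saline mice at 8.57 to 9.10. Polk, a DNA polymerase that copies past bulky lesions, differed by 0.42 ± 0.08 (adjusted p = 0.0351) against 0.33 ± 0.10 with mouse 4. It was the 1 call among 24 DNA repair genes, of which Mgmt, the alkyltransferase that repairs O6-alkylguanine, differed by 0.36 ± 0.09 with all mice and was not called (adjusted p = 0.132). Sowahb (0.51 ± 0.08), the junction protein gene Vezt (0.44 ± 0.08), Tulp4 (0.38 ± 0.07) and Spata7, a ciliary protein gene (0.49 ± 0.09), were also called only then. So were Ptgs1, cyclooxygenase 1 (0.41 ± 0.08), and Elovl1, a fatty acid elongase (0.42 ± 0.08), both at a probe that was not their brightest. Cldn2, a claudin that liver also makes, was at 10.31 in mouse 4, and without that mouse it rose by 0.55 ± 0.11 (adjusted p = 0.0277). The remaining gene called only without mouse 4, LOC100047214, was lower rather than higher and has no official symbol.

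Few calls can be looked for in lists of lung cell types, since 0.228% of all genes were called in either direction at their brightest probe, and a count of 0 in a short list is no result about that cell type. Among alveolar type 2 (15 tested genes), alveolar type 1 (11), club (12), ciliated (18), T (22), B (19) and natural killer cell genes (10), limma called 0 in either direction with or without mouse 4. B cell genes had a median of -0.34 (-0.28 without mouse 4) and 2 of 19 positive, beside 5814 of all 13135 genes. Ciliated genes (1 of 18 positive) and alveolar type 1 genes (1 of 11) were at least as one-sided. T cell genes (18 of 22) and alveolar type 2 genes (10 of 15) were mostly positive. Neutrophil genes had a median of -0.46 (-0.34) over 15 genes, with 0 called. Cd79b, a subunit of the B cell receptor, differed by -0.49 ± 0.16 (adjusted p = 0.301). For neutrophils S100a9, a calcium-binding alarmin, differed by -0.83 (adjusted p = 0.663), whereas Lcn2, lipocalin 2, which epithelium also makes, differed by 0.91 ± 0.28 (adjusted p = 0.289). The B cell score ranged from -0.43 to 0.47 in saline and from -0.38 to 0.23 in urethane mice, so the groups overlapped. Proliferation genes (20 tested, median 0.12), interferon genes (19, -0.02) and inflammation genes (32, -0.01) also had 0 calls. At an unadjusted p under 0.05, 1588 probes passed over the whole array.

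The hepatocyte list had a median of 1.23 over its 13 tested genes with mouse 4 and 0.02 without it. Squamous epithelium genes had a median of 0.69 (0.21 without mouse 4) and skeletal muscle genes 0.69 (0.29). Krt13, a keratin of stratified epithelium, was at 15.74 in mouse 4 and 14.54 in mouse 2, and at 11.63 in saline mouse 9, with a saline median of 7.59. No gene of these 3 lists was called. The median of the p53 arrest list moved with mouse 4 from 0.11 to 0.26, while its called members moved little.

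**Figure D4:**
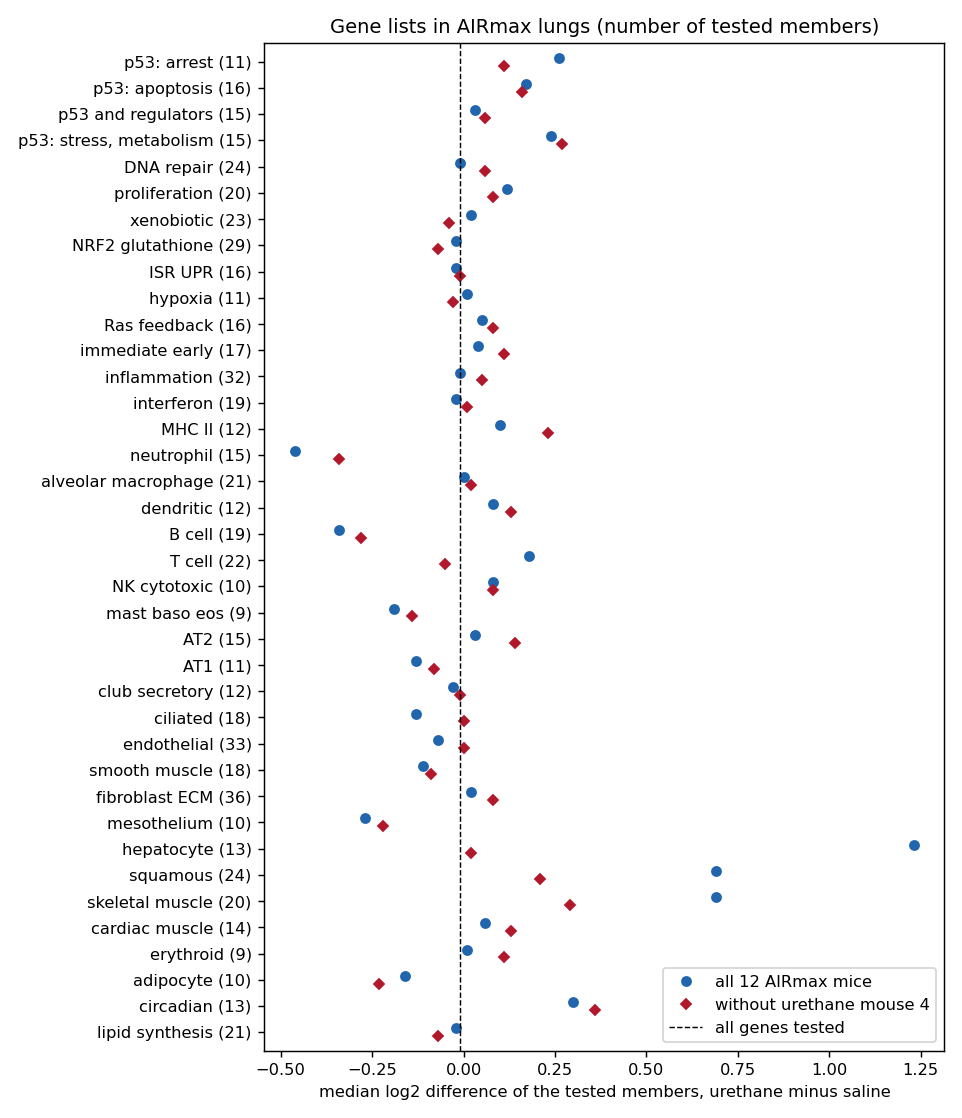
Median log2 difference, urethane minus saline (x axis), over the tested members of each gene list, with all 12 AIRmax mice (blue circles) and without mouse 4 (red diamonds). The dashed line marks the median of all tested genes (-0.01), and the hepatocyte list moves most, from 1.23 to 0.02.

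Within the sexes, 3 against 3 mice, 10 probes were called in AIRmax males (0.0549%, all higher) and 34 in AIRmax females (0.187%, 20 higher, 0.11%, and 14 lower, 0.0768%). All 32 called genes had the same sign in both sexes. The difference between the sexes was called for 0 probes in limma (lowest adjusted p = 0.122, 2186 probes at an unadjusted p under 0.05). Of the 32 genes, 5 higher genes (Fscn1, Plau, Dtnb, Mdm2 and Zmat3) and 1 lower gene (Ddx5) had an unadjusted p under 0.05 for the difference, and their lowest adjusted p was 0.289, that of Ddx5. Plau and Mdm2 had the larger difference in males and the other 4 in females. The calls in females include mouse 4. Without it the sex difference was called for 0 probes (lowest adjusted p = 0.0858, 2269 probes at an unadjusted p under 0.05), and with only the other 11 AIRmax arrays in the fit for 3 probes.

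The AIRmin mice had 48 called probes, 38 higher and 10 lower (0.263%), and at the brightest probe of each gene 0.221% were higher and 0.0381% lower. All 22 AIRmax higher genes had a positive difference in AIRmin, and 14 of them were called higher there. Gdf15 differed by 2.42 ± 0.21, Cdkn1a by 1.49 ± 0.14, Ccng1 by 0.87 ± 0.06, Phlda3 by 1.12 ± 0.10 and Mdm2 by 0.40 ± 0.06 in AIRmin. The lowest unadjusted p for a line difference among these 5 genes was 0.355. Of the 10 lower genes 7 had a negative difference in AIRmin, and Dpysl5 (-0.64 ± 0.11) and Acta2 (-0.70 ± 0.11) were called there.

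The widest gap between the lines among the 32 genes was that of Dusp26, which differed by -0.87 in AIRmax and by 0.21 ± 0.14 in AIRmin, and the line difference was -1.08 (unadjusted p = 3.44e-05). Sox17 differed by -0.54 and 0.24 ± 0.11 (unadjusted p = 6.83e-05 for the line difference), and Tcim by -0.63 and 0.03 ± 0.13. Among higher genes, Ddit4l (1.06 against 0.22 ± 0.20), Zranb3 (0.68 against 0.04 ± 0.13) and Dcxr (0.45 against 0.03 ± 0.08) were furthest apart. None of these line differences passed when adjusted over all probes. For Ddit4l and Dusp26 the lines already differed in saline, with means of 9.73 in AIRmax and 10.56 in AIRmin, and of 9.84 and 8.59. After urethane these means were 10.79 and 10.78, and 8.97 and 8.80. For Zranb3 and Sox17 the order of the lines reversed. Their saline means were 9.70 and 9.97, and 11.83 and 11.65. Their urethane means were 10.38 and 10.01, and 11.29 and 11.89. The line difference was called for 0 probes in limma, with a lowest adjusted p of 0.52 and 1154 probes at an unadjusted p under 0.05, and for 0 probes without mouse 4 (lowest adjusted p = 0.686).

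**Figure D5:**
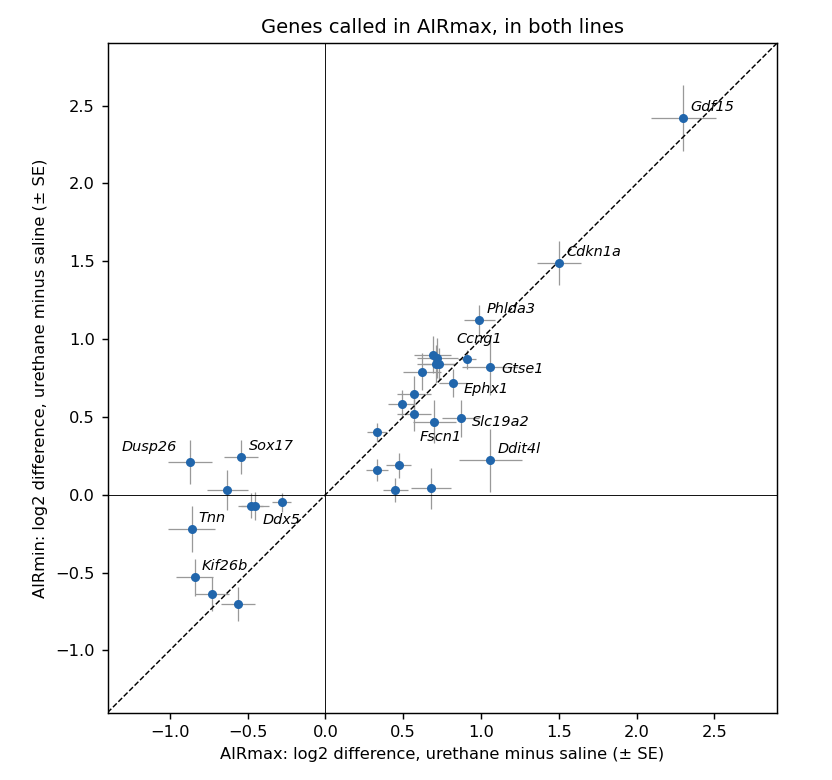
Log2 difference, urethane minus saline, in AIRmax (x axis) and AIRmin mice (y axis) for the 32 genes called in AIRmax, each ± SE of the limma fit, with the dashed line marking equal differences. The genes were chosen on the x axis, the 22 higher genes all lie above 0 on the y axis, and Dusp26 (-0.87, 0.21) and Sox17 (-0.54, 0.24) lie on opposite sides of 0 in the 2 lines.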

How the data were processed

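Lung RNA was hybridised to Illumina bead arrays, 1 array per numbered mouse. The intensities of the series' value table were used on the log2 scale. BeadStudio is named, without its version, in the submitters' processing notes. The sorted intensities deposited by the authors differed by at most 0.871% between arrays, so they were taken as already quantile normalized, and whether background was subtracted is not stated there. Of the other deposited tables, 72 columns are named by slide, match no label and were not used, so slide could not be tested as a batch. Only their probe names were taken, updated through RefSeq.

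The background mode was 7.42 (log2, SD 0.220), which set a limit of 7.94, an intensity of 244.9. The 18224 of 25697 probes above it on at least 3 arrays were tested (13135 genes). limma 3.58.1 in R 4.3.3 fitted a mean for each of 8 cells of line, sex and treatment over 24 arrays. The AIRmax contrast averaged the sexes equally, Benjamini-Hochberg adjustment ran over the 18224 probes, and a call is an adjusted p below 0.05. Each gene was represented by its brightest probe, or by the called probe with the lowest p where the brightest was not called. List counts used the brightest probe only. The genes named were all called genes, genes called only without mouse 4, up to 4 called members of each of 38 lists (otherwise the 2 with the lowest p) and a fixed set, a few of which are not reported here. List members named beyond that rule were chosen with their values known. The members, lists and rule were chosen with earlier results of these data known. A list score is the mean, over its tested genes, of a mouse's log2 distance from the median of the 24 arrays. Nothing beyond the mouse numbers says how samples were processed, and the number of arrays limits the precision. Alternatives changed the offset, filter, arrays fitted, sex term, variance model, weights, covariates, background correction, threshold and mice.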

Additional observations from a re-analysis of the deposited data

Results flagged for a closer look

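In groups of 6 mice, 13 of 104 combinations of gene or list score and treatment group had 1 mouse whose gap to the nearest other exceeded Dixon's critical share of the group's range. Chance flags about 1 in 20 groups when they are independent and chosen without regard to the values, which these were not. Elovl1 and Spata7, for example, were named because they were called only without mouse 4, and Slc19a2 belongs to a list that was itself flagged. The share of 1 in 20 is therefore no yardstick for the count. Of the 13, 8 were mouse 4 in the urethane group. These were Slc19a2 (11.62, others 10.65 to 10.84), Exoc4 (11.56, others 11.98 to 12.15), Tnn (10.04, others 10.76 to 11.12), Elovl1 (12.43, others 12.80 to 12.95) and Spata7 (7.89, others 8.43 to 8.6). The other 3 were its hepatocyte score (6.13, others 0.06 to 0.76), its T cell score (1.21, others -0.17 to 0.26) and its score for p53 targets of metabolism (0.51, others 0.23 to 0.32).

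Among saline mice, mouse 12 was low for Cdkn1a (12.26, others 12.87 to 13.13), mouse 22 was high for Ccnd1 (14.80, others 14.52 to 14.60), mouse 11 was low for Tnn (11.46, others 11.66 to 11.73) and mouse 24 was low for Vezt (9.18, others 9.34 to 9.40). Saline mouse 9 was apart in the squamous epithelium score (0.79, others -0.27 to -0.18).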

How the results depend on the processing

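No called gene changed sign under the 27 alternatives, and 7 of 32 (Gdf15, Cdkn1a, Ccng1, Phlda3, Ephx1, Exoc4 and Kif26b) stayed called under each. The AIRmax count of 38 probes became 20 with only the 12 AIRmax arrays, 71 with array weights and 12 when a log2 change above 0.2 was required. Leaving out 1 mouse gave 18 to 45 probes, with 45 without mouse 4, 18 without urethane mouse 2, 19 without saline mouse 21 or 24, 20 without saline mouse 22 and 24 without saline mouse 12. The call for a sex difference (0 probes) became 3 without mouse 4 in the 11 other AIRmax arrays, and 0 to 1 when 1 mouse was left out. The line difference stayed at 0 under every alternative run. The AIRmin count of 48 became 25 after adding the squamous score to the model, 62 without mouse 4 and 28 without saline mouse 20, whose sex-linked transcripts go against its label. That omission and a fit without mice 2 and 4 (28 AIRmax probes) were chosen after seeing the data. The causes were not tested. No paired analysis was possible because each mouse number occurs once. Dim probes near the limit of 7.94, such as those of Colq and Inka2, have compressed differences.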

Other observations

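Clock genes were called or not depending on 1 saline mouse, female 12. Dbp, a transcription factor with a strong daily rhythm, was at 15.10 in that mouse, at 10.45 to 11.88 in the other 5 saline mice and at 12.25 to 15.27 in urethane mice. Without mouse 12 the groups did not overlap. The Dbp difference was 1.69 ± 0.51 with all mice (limma, adjusted p = 0.278) and 2.32 ± 0.34 without mouse 12 (adjusted p = 0.00373). Nr1d2, a nuclear receptor of the clock, moved from 0.69 ± 0.20 (adjusted p = 0.249) to 0.94 ± 0.14 (adjusted p = 0.00373), and its paralogue Nr1d1 from 0.81 ± 0.27 to 1.10 ± 0.21 (adjusted p = 0.0348). Npas2, a clock activator, moved from -0.46 ± 0.15 to -0.61 ± 0.12 (adjusted p = 0.0436). Its urethane values of 7.39 to 8.41 lay around the background limit of 7.94. Without mouse 12 they still overlapped the saline values of 8.38 to 8.85. Arntl, the partner of Npas2, was not called either way (-0.67 and -1.04, adjusted p = 0.606 and 0.236). Of 13 clock genes 0 were called with all mice, and without mouse 12 these 3 were called higher and 1 lower, where 0.132% of all probes were called. Mouse 12 was singled out after its values were seen. Times of day are not given in the sources used here.

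Mouse 4 also held transcripts known from the thymus, some of them of developing T cells. Rag1, the recombinase of antigen receptor genes, was at 10.88 in mouse 4 and at most 8.21 in the other AIRmax mice. Dntt, the terminal transferase, was at 9.21 (others at most 7.97), Tbata at 12.70 (others at most 7.91) and the T cell co-receptor gene Cd8b1 at 14.71 (others at most 12.88). The part of these transcripts in the median of the T cell list, 0.18 with and -0.05 without mouse 4, was not tested. Cidec, a lipid droplet protein of fat cells, was at 10.71 in mouse 4 and at 8.37 to 9.94 in the other urethane mice, against 9.94 to 11.16 in saline mice, and was not called with or without mouse 4 (adjusted p = 0.278 and 0.132).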
